A study of Mus musculus with 16 samples.

Results

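The genes described here encode the protein coats of the cytosolic lipid droplet and the enzymes that empty it. They were 10 rows of the deposited count table, out of 55356 gene rows, listed by name: the perilipins Plin1, Plin3, Plin4 and Plin5, the droplet protein Cidec, the lipases Pnpla2, Lipe and Mgll, and the lipase cofactors Abhd5 and G0s2. All 10 were found, and all 10 were among the 10634 genes that passed the filter on low counts. They were measured by RNA sequencing of brachiocephalic artery sections from 16 female mice, 4 in each of 4 groups. The groups were Apoe-/-Mif-/- mice after 42 weeks on the diet, Apoe-/- mice after 42 weeks, Apoe-/-Mif-/- mice after 24 weeks and Apoe-/- mice after 24 weeks. All mice, the controls included, were deleted for Apoe, which carries lipoproteins to the liver, and all ate a Western-type diet (0.2% cholesterol, 21.2% fat) from 6 weeks of age. No group on chow or with intact Apoe was analysed here. The Apoe-/-Mif-/- mice lacked the cytokine macrophage migration inhibitory factor as well. Each library came from 1 mouse and from lysates of whole artery sections, whose cell type the labels give as mixed. Fewer cells of a type and less RNA per cell cannot be told apart in such samples.

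Cells store fatty acids as triglyceride in droplets wrapped by perilipins. In fat cells the coat protein perilipin 1 holds the activator ABHD5 away from the first lipase, ATGL (encoded by Pnpla2), until hormone signals phosphorylate the coat. ATGL then removes the first fatty acid, hormone-sensitive lipase (encoded by Lipe) the next one and monoglyceride lipase (encoded by Mgll) the last, while G0S2 inhibits ATGL. In an atherosclerotic artery, droplets are found in cholesterol-laden macrophages, whose usual coat is perilipin 2, and in the fat around the vessel, where perilipin 1 prevails. Plin2 was not among the 10 genes and is given only for comparison.

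The libraries held 378066 to 8649518 counts. The shallowest was library 1 of the 42-week Apoe-/- group, where 1 read was worth 2.11 CPM (read counts scaled to a common library size with TMM factors). Mif, the deleted gene, reached at most 19.9 CPM in the 8 Apoe-/-Mif-/- libraries and at least 23.2 CPM in the 8 Apoe-/- libraries. The 23.2 CPM rest on 11 reads of that shallowest library. Mean Mif was 9.35 against 160 CPM at 42 weeks and 12.8 against 141 CPM at 24 weeks, without and with the gene. The edgeR test used below called Mif at neither duration, so a loss of this size can go uncalled here. The library codes of the 24-week Apoe-/-Mif-/- group carry the letter C, while those of the other 12 libraries carry a B, so that this code and the group cannot be told apart. The smooth muscle actin Acta2, a defining gene of the arterial wall, was present in every library, with 426 to 12016 CPM. The first library of the 24-week Apoe-/- group held the least Acta2 and the most of 8 of the 10 genes, so each comparison with it is also given without it where that changed a call or a direction.

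Plin1, the coat of adipocyte droplets, had the largest fold changes of the 10 genes at 24 weeks and over time without Mif. It had 0.655, 0.410, 0.203 and 0.463 CPM in 24-week Apoe-/-Mif-/- arteries, against 708, 1.01, 67.3 and 410.4 CPM in 24-week Apoe-/- arteries. The values without Mif rest on 1, 2, 1 and 1 reads and all lie below those with Mif, of which libraries 1, 3 and 4 are high and library 2 is low. Library 2 with Mif had 6 reads, and 3 reads in library 1 without Mif would be 1.96 CPM, above its 1.01 CPM. The lack of overlap therefore lies within counting error. After 42 weeks Plin1 had 13.9, 458, 1.68 and 378 CPM in Apoe-/-Mif-/- arteries, against 6.32, 2.07, 78.5 and 4.88 CPM in Apoe-/- arteries. Here the groups overlapped, with libraries 2 and 4 of the Apoe-/-Mif-/- group and library 3 of the Apoe-/- group far above the others of their groups.

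Plin1 fell without Mif at 24 weeks, to 0.433 ± 0.186 CPM, against 297 ± 328 CPM with Mif (SD, n = 4), a log2 fold change of -9.39 ± 1.91 (SE, edgeR adjusted p = 0.0466). It was the only one of the 10 genes to pass an adjusted p under 0.05, in a comparison where 0.047% of all genes tested passed (5 of 10634, all 5 lower). The reads pooled by group gave 444-fold less Plin1 without Mif, with an exact binomial 95% interval of 190.1- to 1369-fold that covers counting error only. Plin1 rose with time in mice without Mif, to 213 ± 239 CPM at 42 weeks, against 0.433 ± 0.186 CPM at 24 weeks, a log2 fold change of 8.91 ± 1.88 (SE, edgeR adjusted p = 0.0401). These groups did not overlap either, which held for 1.35% of all genes in that direction, and 0.122% of all genes passed. The nearest Plin1 values, 0.655 CPM (1 read) at 24 weeks and 1.68 CPM (7 reads) at 42 weeks, lie within counting error. In mice with Mif the level was 22.9 ± 37.1 CPM at 42 weeks and 297 ± 328 CPM at 24 weeks, and the log2 fold change of -3.67 ± 1.44 (SE, edgeR adjusted p = 0.326) did not pass. The difference between the effects of Mif deletion at 42 and at 24 weeks, the interaction, passed for Plin1 with a log2 value of 12.58 ± 2.36 (SE, edgeR adjusted p = 0.0136). In the interaction 0.686% of all genes passed.

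The Plin1 call at 24 weeks was lost when library 1 or 4 with Mif, or any single library without Mif, was left out, with an edgeR adjusted p of up to 0.316 and log2 fold changes from -9.78 to -8.47 over the 8 such fits. It was also lost with DESeq2 size factors (edgeR adjusted p = 0.138), and limma with voom called neither it nor the rise over time (adjusted p = 0.513 and 0.559), while the sign held. The interaction was lost in 5 of 16 fits that left out 1 library, namely library 1, 2 or 4 of the 42-week Apoe-/- group or library 1 of either 24-week group (edgeR adjusted p up to 0.0708), and under limma (adjusted p = 0.587 with voom and 0.506 on the deposited values). The rise over time was lost without library 2 at 42 weeks or any single library at 24 weeks (edgeR adjusted p up to 0.187).

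The 250 bases before the annotated start of Plin1 and of 1 of the 2 starts of Cidec are shown because these were the 2 genes with a match to TTGCNNAA, a spelling of the motif bound by C/EBP factors, which act in fat cell differentiation. The window of Plin3 and that of Pnpla2 are shown for contrast, with the GC box GGGCGG, which lies in many promoters of broadly expressed genes. The sequences are those of RefSeq on build GRCm38.p6, read 5′ to 3′ on the strand of the gene, and capitals mark the motif on either strand. Plin1 lies at chr7:79732777-79733026, minus strand, Cidec at chr6:113434765-113435014, minus strand, Plin3 at chr17:56290512-56290761, minus strand and Pnpla2 at chr7:141454938-141455187, plus strand.
Plin1: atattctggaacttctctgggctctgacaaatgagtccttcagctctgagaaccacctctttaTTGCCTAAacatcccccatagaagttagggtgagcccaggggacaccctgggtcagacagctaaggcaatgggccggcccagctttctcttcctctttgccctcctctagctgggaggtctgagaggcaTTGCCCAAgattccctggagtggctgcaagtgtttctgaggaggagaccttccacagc
Cidec: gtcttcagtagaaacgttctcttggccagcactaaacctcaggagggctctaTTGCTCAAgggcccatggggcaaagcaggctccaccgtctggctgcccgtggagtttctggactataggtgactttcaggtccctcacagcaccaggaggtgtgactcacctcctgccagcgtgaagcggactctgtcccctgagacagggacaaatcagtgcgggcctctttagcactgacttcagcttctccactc
Plin3: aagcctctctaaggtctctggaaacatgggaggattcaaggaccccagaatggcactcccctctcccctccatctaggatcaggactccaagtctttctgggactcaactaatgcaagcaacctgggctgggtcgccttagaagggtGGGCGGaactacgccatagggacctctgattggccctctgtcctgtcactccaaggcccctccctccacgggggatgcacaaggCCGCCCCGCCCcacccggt
Pnpla2: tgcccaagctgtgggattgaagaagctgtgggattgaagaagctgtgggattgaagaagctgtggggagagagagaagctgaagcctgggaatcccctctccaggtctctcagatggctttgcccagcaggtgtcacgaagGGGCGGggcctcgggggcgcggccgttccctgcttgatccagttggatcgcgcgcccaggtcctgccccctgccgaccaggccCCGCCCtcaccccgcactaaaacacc
All 10 genes had at least 1 entry, 14 in all. TTGCNNAA began 187 and 58 bases before the start of Plin1 and 198 bases before that of Cidec, in 2 of the 10 genes, against 10.8% of the 27025 genes with a promoter entry and the same window. GGGCGG was found in 7 of the 10 (Plin3, Plin5, Pnpla2, Lipe, Mgll, Abhd5 and G0s2), against 35.4% of those genes. Neighbouring GGGCGG matches share bases in Plin3 and in Lipe. TATAAA was found in 0 of the 10 genes (14.3% of all), and a direct repeat of AGGNCA with 1 base between its units, a loose form of the element bound by the fat cell regulator PPARG, also in 0 (0.4% of all). AGGTCA, a stricter unit of that repeat, was found in Plin5 and Abhd5 (15.8% of all), and the E-box CACGTG in Lipe and Mgll (6.86% of all). Both strands were searched, and a match describes letters in this window only.

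**Figure D1:**
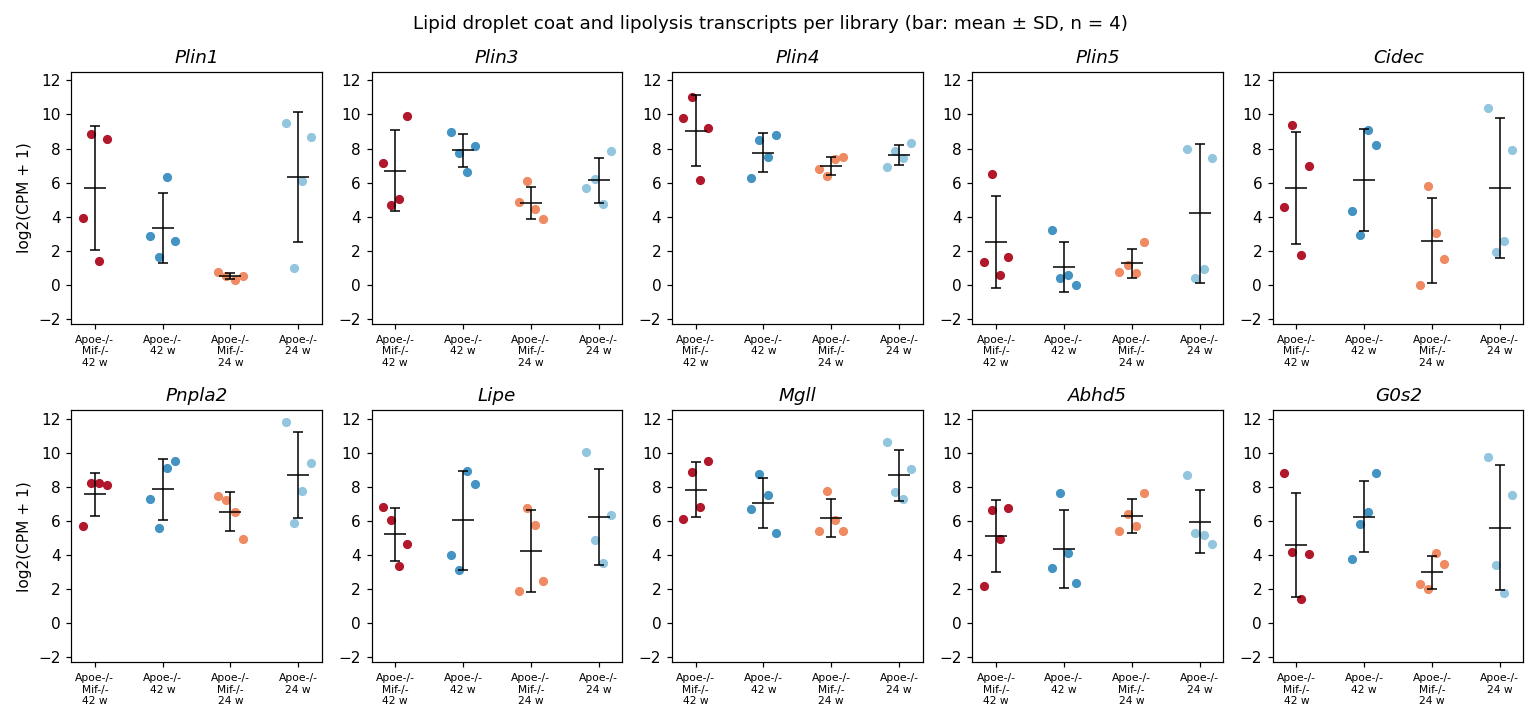
Level of each of the 10 genes in each library, as log2(CPM + 1) on the vertical axis, by group on the horizontal axis. Points are libraries, and the horizontal line with its bar is the mean ± SD of 4 libraries. For Plin1 the 4 Apoe-/-Mif-/- libraries at 24 weeks lie together near 0, below every library of the other groups.

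Cidec, which joins small droplets into the large one of the white fat cell, had 0, 55.8, 7.31 and 1.85 CPM in 24-week Apoe-/-Mif-/- arteries, against 1331, 2.87, 5.01 and 237 CPM in 24-week Apoe-/- arteries. Library 1 with Mif was the highest of all 16, and libraries 2 and 3 with Mif lay within the range of those without. The 0 reads in library 1 without Mif allow up to 1.96 CPM (3 reads). At 42 weeks it had 23.1, 662, 2.39 and 127 CPM in Apoe-/-Mif-/- arteries, against 19.0, 6.50, 553 and 292 CPM in Apoe-/- arteries, and the groups covered much the same range. The log2 fold changes of Cidec were -0.10 ± 1.42 (SE, edgeR adjusted p = 0.978) for Mif deletion at 42 weeks, -4.58 ± 1.65 (SE, edgeR adjusted p = 0.375) at 24 weeks and 3.63 ± 1.58 (SE, edgeR adjusted p = 0.330) for 42 against 24 weeks in mice without Mif. None of these passed. At 42 weeks the 95% interval, -2.98 to 2.78, spans both directions, and the sign turned with other size factors (log2 0.69).

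Plin5, a perilipin of oxidative tissues such as brown fat, heart and muscle that ties droplets to mitochondria, had 0.655, 1.23, 0.609 and 4.63 CPM in 24-week Apoe-/-Mif-/- arteries, against 252, 0.338, 0.871 and 176 CPM in 24-week Apoe-/- arteries, where libraries 1 and 4 were high and the other 2 were not. At 42 weeks it had 1.54, 90.5, 0.479 and 2.15 CPM in Apoe-/-Mif-/- arteries, where library 2 stood alone, against 8.43, 0.295, 0.520 and 0 CPM in Apoe-/- arteries. The highest Apoe-/- value there came from 4 reads of the shallowest library, and the 0 of library 4 allows up to 2.09 CPM. The groups overlapped in all 4 comparisons of groups. Mif deletion at 24 weeks gave a log2 fold change of -5.90 ± 2.03 (SE, edgeR adjusted p = 0.344) and the interaction 9.58 ± 2.79 (SE, edgeR adjusted p = 0.0917), and neither passed. At 42 weeks the log2 fold change of Mif deletion was 3.69 ± 1.94 (SE, edgeR adjusted p = 0.320), and without library 2 of the Apoe-/-Mif-/- group it was -0.16.

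Plin4, a coat of new droplets in fat and muscle, was detected in every library at 69.7 CPM or more. It had 894, 2084, 69.7 and 579.7 CPM in 42-week Apoe-/-Mif-/- arteries, against 75.9, 365, 178 and 439 CPM in 42-week Apoe-/- arteries. Its 3 highest values of all 16 were those of libraries 2, 1 and 4 without Mif at 42 weeks, and library 3 of that group was the lowest of all. At 24 weeks it had 109, 81.2, 165 and 179 CPM in Apoe-/-Mif-/- arteries, against 119.7, 227, 172 and 314 CPM in Apoe-/- arteries, and these groups overlapped. Its log2 fold changes were 1.78 ± 0.83 (SE, edgeR adjusted p = 0.268) for Mif deletion at 42 weeks, -0.64 ± 0.81 (SE, edgeR adjusted p = 0.965) at 24 weeks and 2.76 ± 0.86 (SE, edgeR adjusted p = 0.183) for 42 against 24 weeks without Mif. DESeq2 called the last one (log2 3.57, adjusted p = 0.00893), while edgeR did not. Plin4 overlaps the gene Hdgfl2 on the other strand in the GENCODE M21 models, and the Smart-seq2 libraries keep no strand, so their reads cannot be told apart where they overlap.

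Plin3, a perilipin that most cells make and that moves to droplets from the cytosol, had 140.2, 25.1, 31.8 and 946 CPM in 42-week Apoe-/-Mif-/- arteries, against 504, 215, 99.5 and 286 CPM in 42-week Apoe-/- arteries. Library 4 without Mif was the highest of all 16 and stood far above the other 3 of its group. At 24 weeks it had 27.5, 68.1, 20.9 and 13.4 CPM in Apoe-/-Mif-/- arteries, against 50.5, 74.1, 25.4 and 232 CPM in Apoe-/- arteries, where library 4 was high and the other 3 overlapped with those without Mif. Mif deletion at 42 weeks gave a log2 fold change of 0.053 ± 1.03 (SE, edgeR adjusted p = 0.985) with a 95% interval of -2.03 to 2.14, and its sign turned with other size factors (log2 -0.17). For 42 against 24 weeks it was 3.13 ± 1.12 (SE, edgeR adjusted p = 0.246) in mice without Mif and 1.53 ± 1.05 (SE, edgeR adjusted p = 0.581) in mice with it. Plin3 was the only one of the 10 genes with a positive value above 1 in both duration comparisons, and neither passed. Its lowest library at 42 weeks in Apoe-/- mice, at 99.5 CPM, lay above 3 of the 4 Apoe-/- libraries at 24 weeks.

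Dividing each level by the exon length of the gene (GENCODE M21) allows the perilipins to be set beside each other within a library. Plin2 held the largest part of the 5 perilipins in 13 of 16 libraries, and its share ran from 10.4% to 91.0% over all 16. The 3 exceptions were all in the 42-week Apoe-/-Mif-/- group, where Plin4 led in libraries 1 and 2 with 70.9% and 53.1%, and Plin3 in library 4 with 43.6%. The Plin2 share was 36.6% ± 33.9 in 42-week Apoe-/-Mif-/- arteries, 77.1% ± 10.3 in 42-week Apoe-/- arteries, 86.4% ± 5.95 in 24-week Apoe-/-Mif-/- arteries and 57.3% ± 22.5 in 24-week Apoe-/- arteries (SD, n = 4). Plin2 itself had 409.5 ± 227 CPM in 42-week Apoe-/-Mif-/- arteries and 1604 ± 646 CPM in 42-week Apoe-/- arteries, and the groups did not overlap (599 CPM at most against 860.0 CPM at least), in a comparison where 1.03% of all genes tested lay lower without overlap. The Plin2 difference did not pass over all genes (log2 -1.97, edgeR adjusted p = 0.179). Library 1 of the 24-week Apoe-/- group had 1640 CPM of Plin2 but 215 CPM of the macrophage gene Cd68. The Plin2 share is therefore not read as that of macrophages. Plin1 held 1.37, 14.5, 0.234 and 14.2% of the perilipins in 42-week Apoe-/-Mif-/- arteries, 0.343, 0.0616, 3.88 and 0.136% in 42-week Apoe-/- arteries, 0.0573, 0.0242, 0.0156 and 0.0601% in 24-week Apoe-/-Mif-/- arteries and 19.7, 0.157, 4.75 and 22.0% in 24-week Apoe-/- arteries. Plin5 held over 5% in 3 libraries, which were library 2 of the 42-week Apoe-/-Mif-/- group and libraries 1 and 4 of the 24-week Apoe-/- group. The same 3 libraries and library 4 of the 42-week Apoe-/-Mif-/- group had the largest Plin1 shares.

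**Figure D2:**
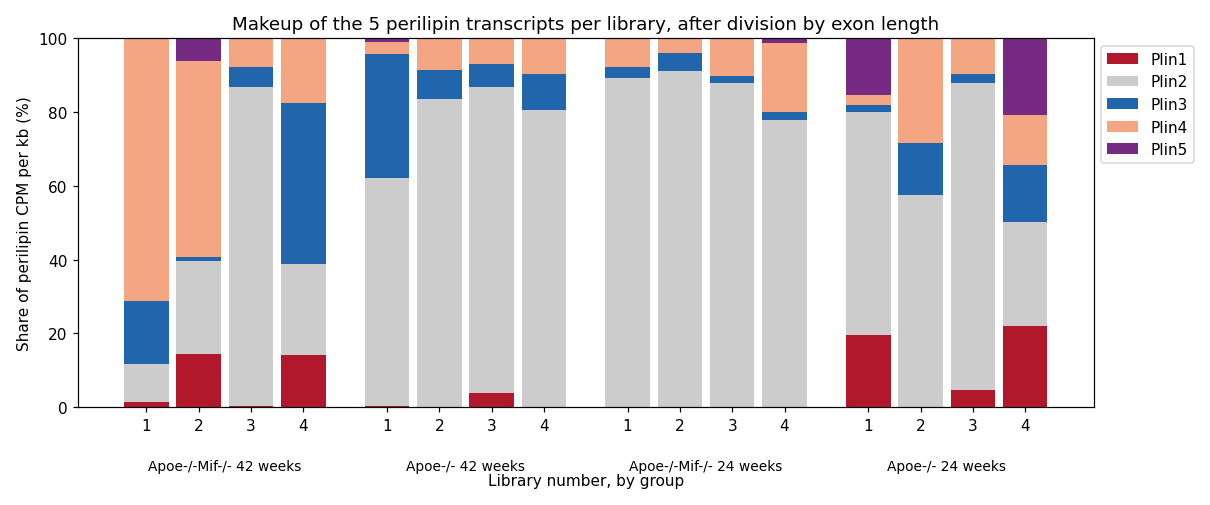
Makeup of the 5 perilipin transcripts in each library, as the share of their summed CPM per kb of exon (vertical axis, %), with 1 bar per library and the groups side by side. The grey Plin2 part is the largest in 13 of 16 libraries, and the other 3 are all in the 42-week Apoe-/-Mif-/- group.

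The 3 lipases act in sequence. Pnpla2, whose product ATGL starts triglyceride breakdown, had 176, 146, 90.7 and 29.1 CPM in 24-week Apoe-/-Mif-/- arteries, against 3506, 57.6, 217 and 668 CPM in 24-week Apoe-/- arteries, where library 1 was the highest of all 16. The mean was 110.5 ± 64.7 CPM without Mif and 1112 ± 1617 CPM with it (SD, n = 4), the groups overlapped, and the log2 fold change of -3.33 ± 1.00 (SE, edgeR adjusted p = 0.271) did not pass. At 42 weeks it had 50.3, 301, 298 and 279 CPM in Apoe-/-Mif-/- arteries, against 154, 47.6, 542 and 725 CPM in Apoe-/- arteries. Libraries 2 to 4 without Mif were close together and library 1 was lower, and the log2 fold change was -0.66 ± 0.92 (SE, edgeR adjusted p = 0.743) with a 95% interval of -2.53 to 1.20. Between 42 and 24 weeks the log2 fold changes were 1.07 ± 0.93 (SE, edgeR adjusted p = 0.646) without Mif and -1.60 ± 0.94 (SE, edgeR adjusted p = 0.509) with it. With Mif the value turned to 0.24 when library 1 at 24 weeks was left out.

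Lipe, which encodes hormone-sensitive lipase, had 112, 64.1, 9.10 and 23.7 CPM in 42-week Apoe-/-Mif-/- arteries, against 14.8, 7.68, 484 and 280.4 CPM in 42-week Apoe-/- arteries, where libraries 3 and 4 were high and the first 2 low. At 24 weeks it had 2.62, 106, 53.0 and 4.63 CPM in Apoe-/-Mif-/- arteries, against 1072, 28.7, 10.6 and 81.6 CPM in Apoe-/- arteries. The groups overlapped, and library 1 held 89.9% of the summed CPM with Mif. The log2 fold changes of Mif deletion were -1.92 ± 1.31 (SE, edgeR adjusted p = 0.447) at 42 weeks and -2.83 ± 1.36 (SE, edgeR adjusted p = 0.660) at 24 weeks, and the value at 24 weeks was 0.075 without that library. Lipe lies opposite the antisense gene 4732471J01Rik, with which it can share reads here.

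Mgll, which encodes the lipase that frees glycerol and the last fatty acid and also breaks down an endocannabinoid, had 41.3, 216, 64.9 and 41.2 CPM in 24-week Apoe-/-Mif-/- arteries, against 1579, 206, 156 and 526 CPM in 24-week Apoe-/- arteries. Libraries 1, 3 and 4 without Mif lay below every library with Mif, and library 2 lay among these. At 42 weeks it had 67.3, 459.6, 113 and 744 CPM in Apoe-/-Mif-/- arteries, against 101, 422, 181 and 37.7 CPM in Apoe-/- arteries, with wide overlap. The log2 fold changes of Mif deletion were 0.89 ± 0.92 (SE, edgeR adjusted p = 0.639) at 42 weeks and -2.76 ± 0.97 (SE, edgeR adjusted p = 0.361) at 24 weeks, and that of the interaction was 3.65 ± 1.33 (SE, edgeR adjusted p = 0.191). DESeq2 called the interaction of Mgll (adjusted p = 0.0386) and edgeR did not. Mgll overlaps 5 other annotated genes, among them the antisense gene Gm26588, whose reads cannot be told from its own. Per kb of exon, Pnpla2 was the most abundant lipase transcript in 12 of 16 libraries, Mgll in 3 and Lipe in 1. The Pnpla2 share of the 3 lipases was 50.5% ± 21.1 in 42-week Apoe-/-Mif-/- arteries, 56.7% ± 28.7 in 42-week Apoe-/- arteries, 60.4% ± 18.7 in 24-week Apoe-/-Mif-/- arteries and 58.5% ± 19.4 in 24-week Apoe-/- arteries (SD, n = 4). It varied within groups by more than the group means differed.

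The cofactors of ATGL act in opposite directions. Abhd5, the activator, had 3.60, 98.9, 29.2 and 105 CPM in 42-week Apoe-/-Mif-/- arteries, against 8.43, 194, 16.1 and 4.19 CPM in 42-week Apoe-/- arteries. At 24 weeks it had 40.6, 83.5, 51.9 and 201 CPM in Apoe-/-Mif-/- arteries, against 411, 38.8, 34.8 and 24.1 CPM in Apoe-/- arteries, where library 1 stood alone. All groups overlapped. Its log2 fold changes of Mif deletion, 0.075 ± 1.26 (SE, edgeR adjusted p = 0.982) at 42 weeks and -0.43 ± 1.25 (SE, edgeR adjusted p = 0.983) at 24 weeks, were next to the smallest and the smallest of the 10 in size. Their 95% intervals, -2.47 to 2.62 and -2.97 to 2.11, leave room for a change of several fold in either direction. Without library 1 of the Apoe-/- group, the value at 24 weeks turned to 1.53. A730085K08Rik overlaps Abhd5 on the other strand.

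G0s2, the inhibitor, had 3.93, 3.08, 16.2 and 10.2 CPM in 24-week Apoe-/-Mif-/- arteries, against 847, 9.46, 2.40 and 185 CPM in 24-week Apoe-/- arteries, where libraries 1 and 4 were high and libraries 2 and 3 lay within or below the range without Mif. At 42 weeks it had 441, 16.7, 1.68 and 15.5 CPM in Apoe-/-Mif-/- arteries, with library 1 far above the rest, against 12.6, 55.5, 92.5 and 451 CPM in Apoe-/- arteries. Its log2 fold changes of Mif deletion were -0.37 ± 1.33 (SE, edgeR adjusted p = 0.917) at 42 weeks and -4.95 ± 1.57 (SE, edgeR adjusted p = 0.291) at 24 weeks, and that of 42 against 24 weeks without Mif was 3.82 ± 1.49 (SE, edgeR adjusted p = 0.278). Per kb of exon, the ratio of G0s2 to Pnpla2 had a median of 0.192 (range 0.0195 to 30.4) in 42-week Apoe-/-Mif-/- arteries and of 1.37 (0.285 to 4.05) in 42-week Apoe-/- arteries. At 24 weeks the median was 0.349 (0.0731 to 1.21) in Apoe-/-Mif-/- arteries and 0.704 (0.0383 to 0.962) in Apoe-/- arteries. The ranges overlapped in every pair of groups. G0s2 lies opposite Lamb3 in the GENCODE M21 models, and reads of Lamb3 cannot be told from its own where they overlap.

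Across the 10 genes, Mif deletion at 24 weeks gave lower values in all 10, with a median log2 fold change of -3.08 against -0.18 over all genes tested. Without library 1 of the Apoe-/- group, Lipe (log2 0.075) and Abhd5 (log2 1.53) turned to higher values, and Abhd5 also turned under limma. Plin1 passed, and 7 of the 10 had an unadjusted p under 0.05 and were lower (Plin1, Plin5, Cidec, Pnpla2, Lipe, Mgll and G0s2), against 5.57% of all genes. Plin1 was the only one of the 10 whose groups did not overlap, against 2.29% of all genes lower without overlap. The nearest Plin1 values of these groups rest on 1 and 6 reads and lie within counting error. DESeq2 called 4 of the 10 lower (Plin1, Plin5, Pnpla2 and G0s2), against 2.19% of the genes to which it gave an adjusted p. At 42 weeks 6 were higher and 4 lower without Mif, with a median of 0.064 against 0.093 over all genes, and the signs of Plin3 and Cidec turned with other size factors. edgeR called 0 of the 10 there and 2 had an unadjusted p under 0.05 (Plin1 and Plin4, both higher), against 9.26% of all genes. DESeq2 called 1 of them (Plin1, adjusted p = 0.0479), against 9.94% of the genes to which it gave an adjusted p, and limma called 0 with voom and 0 of 9 on the deposited values. Over all genes edgeR called 0% (0 of 10634) at 42 weeks.

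Between 42 and 24 weeks, 9 of the 10 genes were higher and Abhd5 lower in mice without Mif (median log2 fold change 2.95, against 0.12 over all genes). There Plin1 passed, and 6 genes had an unadjusted p under 0.05 and were higher (Plin1, Plin3, Plin4, Cidec, Mgll and G0s2), against 7.45% of all genes. DESeq2 called 4 higher there (Plin1, Plin3, Plin4 and G0s2), against 6.2% of all genes. In mice with Mif 8 were lower and Plin3 and Plin4 higher (median -1.01, against -0.12). edgeR called 0 of the 10 in them, as it called 0% of all genes, and 2 had an unadjusted p under 0.05 (Plin1 and Plin5, both lower), against 8.36% of all genes. DESeq2 called 1 (Plin5, adjusted p = 0.0460), against 4.01% of all genes, and limma 0 with voom and 0 of 9 on the deposited values. When library 1 at 24 weeks was left out, Cidec, Pnpla2, Lipe, Abhd5 and G0s2 turned to higher values at 42 weeks. The interaction was positive for all 10 genes (median 3.16, against 0.26 over all genes), with Plin3, Lipe and Abhd5 turning when a single library was left out, and 6 had an unadjusted p under 0.05 (Plin1, Plin4, Plin5, Cidec, Mgll and G0s2), against 9.36% of all genes that were positive at that p. DESeq2 called 3 in the interaction (Plin1, Plin5 and Mgll), against 5.89% of all genes. These comparisons share libraries: each group enters 3 of the 5.

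**Figure D3:**
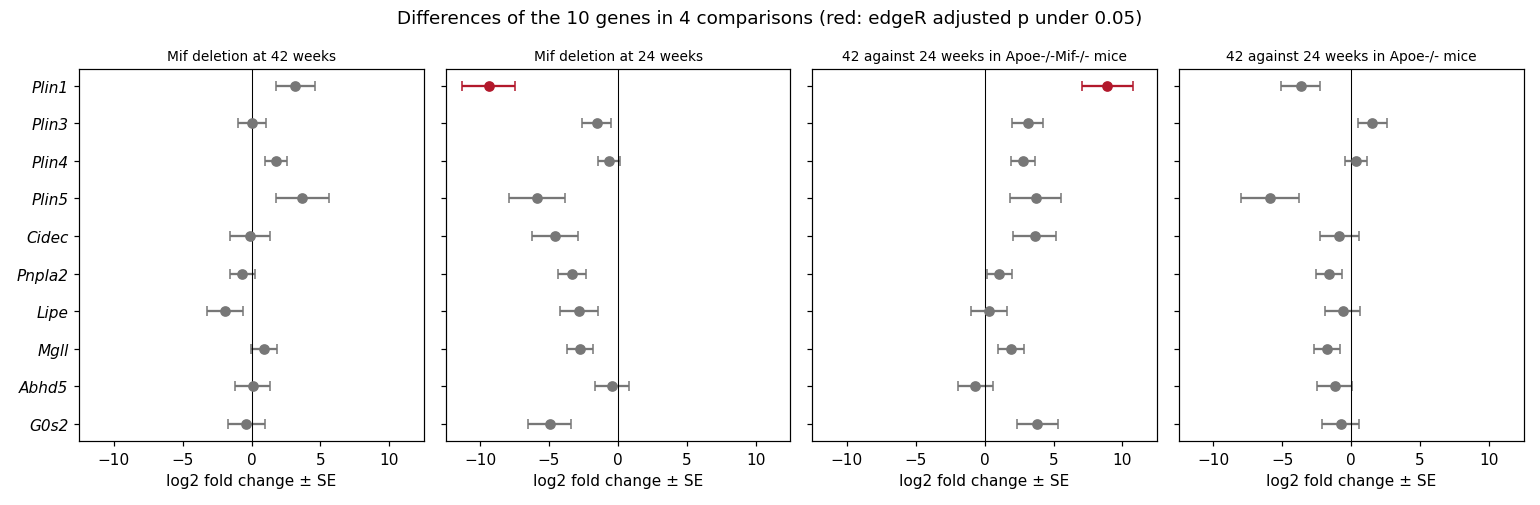
Log2 fold change ± SE (horizontal axis) of each of the 10 genes (vertical axis) in 4 comparisons, 1 per panel, from edgeR. Red points passed an adjusted p under 0.05: Plin1 for Mif deletion at 24 weeks (-9.39) and Plin1 for 42 against 24 weeks in Apoe-/-Mif-/- mice (8.91).

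Other genes of droplet and triglyceride metabolism were followed as 5 lists. In the 4 comparisons of groups 0 members of these lists passed the edgeR test, and in the interaction 5 did, of which limma called 0. Of all genes 0.686% passed the interaction. For Mif deletion at 24 weeks, 5.57% of all genes were lower at an unadjusted p under 0.05. There DESeq2 called 2.19% of all genes in either direction, and the counts of the 5 lists stand against these shares. Of 10 tested genes of triglyceride synthesis, 10 were lower without Mif at 24 weeks (median log2 fold change -1.88), 3 of them at an unadjusted p under 0.05. DESeq2 called 2 of them there (Agpat2 and Dgat2) and limma 0. Dgat2, which adds the last fatty acid to triglyceride, passed for the interaction (log2 9.27 ± 1.81 SE, edgeR adjusted p = 0.0176). Its log2 fold change was 3.57 for Mif deletion at 42 weeks, with 421 ± 346 CPM in 42-week Apoe-/-Mif-/- arteries and 35.1 ± 41.2 CPM in 42-week Apoe-/- arteries (SD, n = 4), and -5.71 at 24 weeks, and neither passed alone.

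Of 7 tested coats and assembly factors outside the 10 genes, 3 were higher and 4 lower (median log2 fold change -1.17) without Mif at 24 weeks, 1 at an unadjusted p under 0.05. DESeq2 called that gene, Cidea, and limma called 0. Cidea, a relative of Cidec in brown fat, passed for the interaction (log2 8.85, edgeR adjusted p = 0.0224). Of 9 other neutral lipid hydrolases and their inhibitors, 3 were higher and 6 lower (median log2 fold change -1.57) without Mif at 24 weeks. At an unadjusted p under 0.05 there were 3, 2 lower and 1 higher, of which DESeq2 called Ces1d and limma called 0. Ces1d, a carboxylesterase of fat and liver that cleaves triglyceride, passed for the interaction as positive (log2 10.62, edgeR adjusted p = 0.0136). Daglb, a diacylglycerol lipase of macrophages, passed as negative (log2 -7.04, edgeR adjusted p = 0.0498), with 11.8 ± 8.18 CPM in 42-week Apoe-/-Mif-/- arteries and 387 ± 446 CPM in 42-week Apoe-/- arteries (SD, n = 4).

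Of 11 genes of fatty acid and glycerol transport, 4 were higher and 7 lower (median log2 fold change -1.99) without Mif at 24 weeks. At an unadjusted p under 0.05 there were 6, 5 lower and 1 higher. DESeq2 called 3 of them (Aqp7, Fabp4 and Gpihbp1, all lower) and limma 0. Gpihbp1, which anchors lipoprotein lipase on capillaries, passed for the interaction (log2 10.89, edgeR adjusted p = 0.0204), with 378 ± 419.6 CPM in 42-week Apoe-/-Mif-/- arteries and 8.23 ± 6.00 CPM in 42-week Apoe-/- arteries (SD, n = 4). Of 10 tested genes of hormone signalling to lipolysis, 3 were higher and 7 lower (median log2 fold change -1.04) without Mif at 24 weeks. None of them passed in any of the 5 comparisons by edgeR, DESeq2 or limma (0 of 10 by edgeR, with 1 to 2 at an unadjusted p under 0.05). The smallest p at 24 weeks was that of Adrb3, the beta-adrenergic receptor of fat cells (log2 fold change -5.91 ± 2.02 SE, edgeR adjusted p = 0.341).

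Markers of fat were low in the group with the least Plin1. The summed level of 14 white adipocyte markers outside the 10 genes was 1398 to 29481 CPM in 42-week Apoe-/-Mif-/- arteries, 1591 to 13776 CPM in 42-week Apoe-/- arteries, 405 to 1335 CPM in 24-week Apoe-/-Mif-/- arteries and 832 to 23666 CPM in 24-week Apoe-/- arteries. Lep, which encodes leptin, was at 0 in all 4 of the 24-week Apoe-/-Mif-/- libraries and in 9 of the other 12. The adipokine gene Adipoq had 0.655, 0.820, 34.9 and 1.39 CPM in 24-week Apoe-/-Mif-/- arteries, against 672, 1.86, 147 and 383 CPM in 24-week Apoe-/- arteries, and library 2 of the second group lay within the range of the first. Without Mif at 24 weeks all 13 tested markers of this list were lower (median log2 fold change -3.76), against 54.9% of all genes. Of them Thrsp passed (log2 fold change -7.76 ± 1.37 SE, edgeR adjusted p = 0.0191), against 0.047% of all genes. Over time without Mif all 13 were higher, against 52.9% of all genes, and Thrsp and Car3 passed, against 0.122% of all genes. DESeq2 called 5 as lower at 24 weeks and 8 as higher over time, against 2.19% and 6.2% of all genes called in either direction. Meanwhile limma called 0 at 24 weeks and, over time, 0 with voom and Thrsp alone on the deposited values.

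The summed level of 9 brown adipocyte markers was 50.3 to 5114 CPM in 42-week Apoe-/-Mif-/- arteries, 149.6 to 356 CPM in 42-week Apoe-/- arteries, 107 to 241 CPM in 24-week Apoe-/-Mif-/- arteries and 53.7 to 15721 CPM in 24-week Apoe-/- arteries. Elovl3 was at 0 in all 4 of the 24-week Apoe-/-Mif-/- libraries and in 2 of the other 12, Otop1 in the same 4 and 5 of the other 12, and Zic1 in the same 4 and 11 of the other 12. For Ucp1, the uncoupling protein of brown fat, the levels were 0, 16.8, 0.812 and 2.31 CPM in 24-week Apoe-/-Mif-/- arteries, against 3448, 5.74, 12.8 and 1181 CPM in 24-week Apoe-/- arteries, where libraries 1 and 4 were high. Of 7 tested brown fat markers, 4 passed for the interaction as positive (Ucp1, Cidea, Elovl3 and Cox8b), where 0.686% of all genes passed. DESeq2 called 5 of the 7 there, against 5.89% of all genes, and limma 0 with voom and 0 of 5 on the deposited values. The part of fat cells in the Plin1 differences was not tested.

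The 10 skeletal muscle markers summed to 26.3 to 469 CPM in 42-week Apoe-/-Mif-/- arteries, 20.0 to 144 CPM in 42-week Apoe-/- arteries, 31.8 to 120.3 CPM in 24-week Apoe-/-Mif-/- arteries and 12.7 to 5578 CPM in 24-week Apoe-/- arteries, and Myh2 was at 0 in all 4 of the 24-week Apoe-/-Mif-/- libraries and in 6 of the other 12. Libraries 1 and 4 of the 24-week Apoe-/- group, which were high in Plin5, had 1161 and 775 CPM of the muscle actin Acta1, and libraries 2 and 3 had 2.19 and 3.38 CPM. Of 7 tested skeletal muscle markers, 6 were lower without Mif at 24 weeks, against 54.9% of all genes, and Mb was higher. Mb had 35.8 ± 25.2 CPM in 24-week Apoe-/-Mif-/- arteries and 6.71 ± 7.28 CPM in 24-week Apoe-/- arteries (SD, n = 4). Myh4, Tnnt3 and Atp2a1 passed as lower without Mif at 24 weeks, 3 of 7 tested, against 0.047% of all genes. DESeq2 called 4 of 6 there, against 2.19% of all genes, and limma 0. The 7 cardiac markers summed to 191 to 933 CPM in 42-week Apoe-/-Mif-/- arteries, 136 to 383 CPM in 42-week Apoe-/- arteries, 1201 to 4234 CPM in 24-week Apoe-/-Mif-/- arteries and 117 to 475 CPM in 24-week Apoe-/- arteries, and these sums did not overlap at 24 weeks. Of the 7, 6 had higher values without Mif at 24 weeks and Ryr2 a lower one, against 45.1% of all genes higher. By edgeR 0 of them passed (smallest adjusted p = 0.226). DESeq2 called 4 of them higher (Myh6, Myl7, Nppa and Tnnt2), against 2.19% of all genes called in either direction, and limma 0. The 12 foam cell and macrophage markers summed to 26758 to 38601 CPM in 42-week Apoe-/-Mif-/- arteries, 34576 to 58023 CPM in 42-week Apoe-/- arteries, 21532 to 56902 CPM in 24-week Apoe-/-Mif-/- arteries and 8780.4 to 50561 CPM in 24-week Apoe-/- arteries. Spp1 alone had group means of 13932 to 18880 CPM. Without Mif, 11 of the 12 were higher at 24 weeks (45.1% of all genes) and 10 were lower at 42 weeks (48.2% of all genes). With Mif, 10 were higher at 42 than at 24 weeks (47.3% of all genes). By edgeR 0 of them passed in these comparisons. The 8 contractile smooth muscle markers summed to 3689 to 17259.5 CPM in 42-week Apoe-/-Mif-/- arteries, 3836 to 10391 CPM in 42-week Apoe-/- arteries, 3969.8 to 14030.4 CPM in 24-week Apoe-/-Mif-/- arteries and 889 to 11500.2 CPM in 24-week Apoe-/- arteries, and the 8 endothelial markers to 585 to 1651 CPM in 42-week Apoe-/-Mif-/- arteries, 1107 to 4714 CPM in 42-week Apoe-/- arteries, 152 to 1406 CPM in 24-week Apoe-/-Mif-/- arteries and 445 to 1863 CPM in 24-week Apoe-/- arteries. The part of these cell types in the results was not tested. Mitochondrial transcripts made up 6.01, 7.30, 1.94 and 8.64% of counts in 42-week Apoe-/-Mif-/- arteries, 2.98, 1.57, 1.74 and 3.55% in 42-week Apoe-/- arteries, 1.08 to 3.06% in 24-week Apoe-/-Mif-/- arteries and 10.2, 0.751, 1.08 and 6.31% in 24-week Apoe-/- arteries. Within the 42-week Apoe-/-Mif-/- group the share was highest in libraries 2 and 4 and lowest in library 3, as was Plin1. Within the 24-week Apoe-/- group it was highest in libraries 1 and 4, as was Plin1. The other 2 groups differed: in 42-week Apoe-/- arteries library 4 had the highest share and library 3 the most Plin1. In 24-week Apoe-/-Mif-/- arteries library 4 had the highest share and library 1 the most Plin1, from 1 read. The part of the mitochondrial share in the Plin1 differences was not tested.

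The 10 genes differed in how many of their highest libraries they shared with fat markers. Of the 8 libraries with the most Adipoq, 7 were also among the 8 with the most Plin1, Cidec and Pnpla2. The number was 6 for Lipe and G0s2, 5 for Plin3, Plin4, Plin5 and Mgll, and 3 for Abhd5. Over all genes tested the median was 4, 0.997% of genes reached 7 and 6.31% reached 6. With Ucp1, Plin5 and Cidec shared 7 of their 8 highest libraries, Plin1 and Lipe 6, and the others 4 or 5. Of all genes, 0.743% reached 7 and 4.50% reached 6 or more. With Acta1, Plin5 shared 7, Plin1, Plin4 and Cidec 6, and the others 4 or 5. Here 0.846% of all genes reached 7 and 4.72% reached 6 or more. For Plin5 the libraries at ranks 4 to 8 had only 1.23 to 8.43 CPM, from 3 to 10 reads. Its counts of shared libraries therefore rest in part on ranks within counting error. With the macrophage gene Cd68, the 10 genes shared 3 to 5. The tested genes whose pattern over the 16 libraries was most like that of Plin1 were Tmem45b (Spearman's rho 0.935), Adipoq (0.909), Prxl2a (0.900), Elovl3, Thrsp, Kdm2b, Idh3g, Gpd1, Cidea and Scd1 (0.844), which were chosen by this measure and carry no test. Most like Plin3 were Slc44a1 (rho 0.838), Dctn1, H2-D1, Guca1b and Dock6 (0.744). All levels share the libraries and their scaling.

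**Figure D4:**
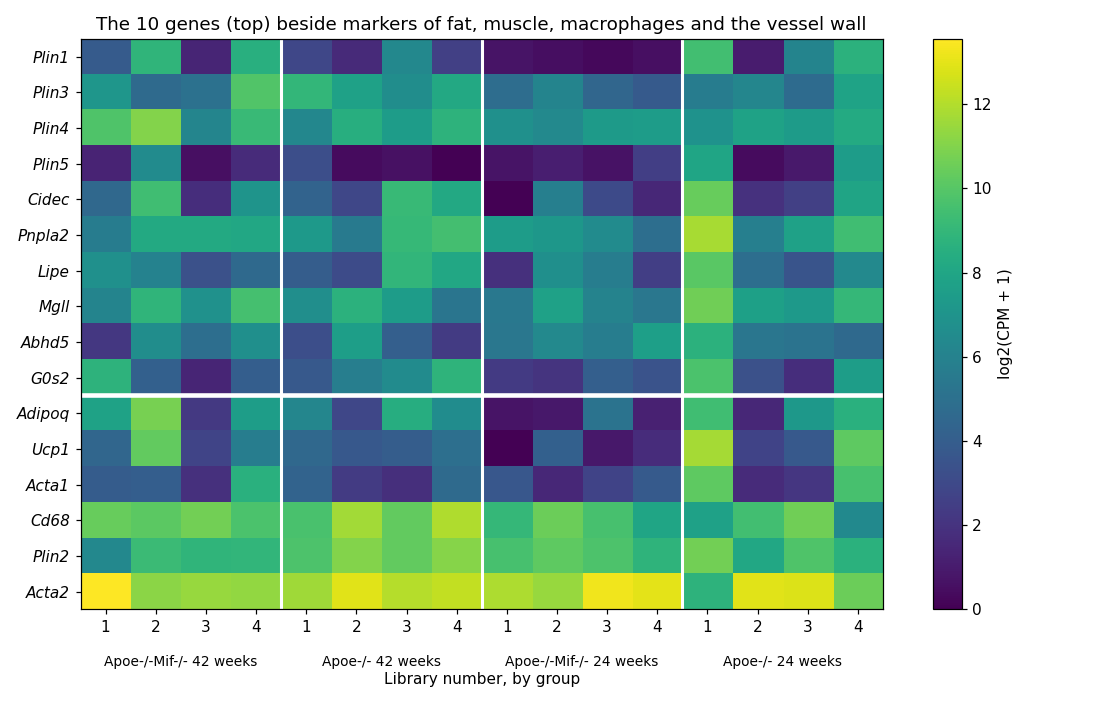
Level of the 10 genes (upper block) in each of 16 libraries, with colour as log2(CPM + 1), libraries on the horizontal axis and genes on the vertical axis. The lower block holds Plin2 and markers of white fat (Adipoq), brown fat (Ucp1), skeletal muscle (Acta1), macrophages (Cd68) and smooth muscle (Acta2). Library 1 of the 24-week Apoe-/- group has the highest value of the row for 8 of the 10 genes and the lowest for Acta2. It is also bright for Adipoq, Ucp1 and Acta1. All rows share 1 colour scale.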

How the data were processed

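Per the labels' protocols, RNA from frozen brachiocephalic artery sections of 5 µm was pooled per mouse, and 1 ng was amplified by Smart-seq2, which keeps no strand and no molecular identifiers. Per the submitters' processing notes, the authors used cutadapt 1.18, Trim Galore 0.6.4, FastQC 0.11.5 and STAR 2.5.2b with build GRCm39. The counting program and annotation are not given in the sources used here. The deposited counts are whole reads per gene symbol, with 55359 rows, of which 1 blank row (at most 0.00257% of a library) and 2 reporter rows were left out. The deposited variance-stabilised values, on a log2 scale over 9578 genes, were an alternative input. Of the 10 genes it holds all but Plin5.

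Groups came from the labels, with 1 mouse per library. CPM were computed from the deposited counts over the genes tested, with TMM factors. edgeR 4.0.16 in R 4.3.3 was run with filterByExpr (minimum count 10, total 15), its quasi-likelihood test in 1 fit over 16 libraries with 12 residual degrees of freedom, and Benjamini-Hochberg adjustment over all genes tested. A gene was called at an adjusted p under 0.05. SEs are the log2 fold change divided by the square root of F, and 95% intervals use the total degrees of freedom of that test. limma 3.58.1 and DESeq2 1.42.0 were alternatives. The script was tested on simulated data. Log2 CPM for Spearman correlations used a prior count of 2. Exon lengths came from GENCODE M21 on another build (GRCm38) and were used for lengths and overlaps only. Counting intervals are exact and cover counting error only, since PCR copies are not independent molecules.

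The 10 genes, the other lists and the tests were chosen with earlier results of these data known. All 10 genes were named, with list members that passed in any comparison and, where none passed, the member with the smallest p. The genes nearest to Plin1 (10) and Plin3 (5) were named by Spearman correlation, with predicted genes left out. Replicate numbers were given in accession order.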

Additional observations from a re-analysis of the deposited data

Results flagged for a closer look

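The effect of Mif deletion on Plin1 differed between durations, with an interaction log2 fold change of 12.58 (edgeR adjusted p = 0.0136). Plin1 was lower without Mif at 24 weeks (log2 -9.39) and higher at 42 weeks (log2 3.19, which did not pass alone). With limma the interaction did not pass (adjusted p = 0.587 with voom and 0.506 on the deposited values).

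In 12 of the 40 sets of 4 libraries (10 genes in 4 groups), 1 library stood apart from the other 3, with a gap to the nearest that took up nearly the whole range of the group (Dixon's test at 95%). Chance alone marks about 1 in 20 such sets when values are evenly spread, and CPM values are skewed. The high ones were Plin1 in library 3 of the 42-week Apoe-/- group (78.5 CPM, nearest other 6.32 CPM), Plin3 in library 4 of the 42-week Apoe-/-Mif-/- group (946 CPM, nearest other 140.2 CPM), Plin5 in library 2 of the 42-week Apoe-/-Mif-/- group (90.5 CPM, nearest other 2.15 CPM), Plin5 in library 1 of the 42-week Apoe-/- group (8.43 CPM, nearest other 0.520 CPM) and Plin5 in library 4 of the 24-week Apoe-/-Mif-/- group (4.63 CPM, nearest other 1.23 CPM). Others were Cidec in library 2 of the 24-week Apoe-/-Mif-/- group (55.8 CPM, nearest other 7.31 CPM), Lipe in library 1 of the 24-week Apoe-/- group (1072 CPM, nearest other 81.6 CPM), Mgll in library 2 of the 24-week Apoe-/-Mif-/- group (216 CPM, nearest other 64.9 CPM), Abhd5 in library 2 of the 42-week Apoe-/- group (194 CPM, nearest other 16.1 CPM), Abhd5 in library 1 of the 24-week Apoe-/- group (411 CPM, nearest other 38.8 CPM) and G0s2 in library 1 of the 42-week Apoe-/-Mif-/- group (441 CPM, nearest other 16.7 CPM). The low one was Pnpla2 in library 1 of the 42-week Apoe-/-Mif-/- group (50.3 CPM, nearest other 279 CPM). Library 1 of the 24-week Apoe-/- group, the highest for Lipe and Abhd5, had 10.2% mitochondrial counts, the largest share of all 16.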

How the results depend on the processing

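For Mif deletion, diet duration and their interaction, the numbers of all genes called were 0 for deletion at 42 weeks, 5 for deletion at 24 weeks, 13 for duration without Mif, 0 for duration with Mif and 73 for the interaction. Those of the 10 genes were 0 for deletion at 42 weeks, 1 for deletion at 24 weeks, 1 for duration without Mif, 0 for duration with Mif and 1 for the interaction. With DESeq2 size factors in edgeR the calls over all genes became 0 for deletion at 24 weeks and 22 for duration without Mif, and those of the 10 genes became 0 for deletion at 24 weeks. The log2 fold change then had the opposite sign for Plin3 (-0.17) and Cidec (0.69) for deletion at 42 weeks. Without the low-count filter the calls over all genes became 150 for deletion at 42 weeks, 117 for deletion at 24 weeks, 419 for duration without Mif, 18 for duration with Mif and 426 for the interaction, and those of the 10 genes became 3 for deletion at 24 weeks and 2 for the interaction. With the DESeq2 test the calls over all genes became 902 for deletion at 42 weeks, 207 for deletion at 24 weeks, 562 for duration without Mif, 372 for duration with Mif and 546 for the interaction, and those of the 10 genes became 1 for deletion at 42 weeks, 4 for deletion at 24 weeks, 4 for duration without Mif, 1 for duration with Mif and 3 for the interaction. The log2 fold change then had the opposite sign for Plin3 (-0.17) and Cidec (0.69) for deletion at 42 weeks. With limma voom the calls over all genes became 0 for deletion at 24 weeks, 0 for duration without Mif and 0 for the interaction, and those of the 10 genes became 0 for deletion at 24 weeks, 0 for duration without Mif and 0 for the interaction. The log2 fold change then had the opposite sign for Plin3 (-0.89) for deletion at 42 weeks, Abhd5 (0.60) for deletion at 24 weeks, Cidec (1.57), Lipe (0.64) and G0s2 (1.79) for duration with Mif, Lipe (-0.11), Abhd5 (-0.11) and G0s2 (-0.41) for the interaction. With limma on the deposited values the calls over all genes became 0 for deletion at 24 weeks, 2 for duration without Mif and 0 for the interaction, and those of the 10 genes became 0 for deletion at 24 weeks, 0 for duration without Mif and 0 for the interaction. The log2 fold change then had the opposite sign for Plin3 (-0.96) for deletion at 42 weeks, Abhd5 (0.38) for deletion at 24 weeks, Cidec (0.55), Lipe (0.15) and G0s2 (0.71) for duration with Mif. With only the 2 groups compared in the fit the calls over all genes became 25 for deletion at 42 weeks and 0 for deletion at 24 weeks, and those of the 10 genes became 0 for deletion at 24 weeks and 0 for duration without Mif. The log2 fold change then had the opposite sign for Plin3 (-0.089) and Cidec (0.31) for deletion at 42 weeks. Leaving out 1 library at a time also changed the filter, so that 11426 to 11904 genes were tested. The calls over all genes then ran from 0 to 1 for deletion at 42 weeks, 0 to 21 for deletion at 24 weeks, 0 to 33 for duration without Mif and 0 to 124 for the interaction, and those of the 10 genes from 0 to 1 for deletion at 24 weeks, 0 to 1 for duration without Mif and 0 to 1 for the interaction. In at least 1 of these fits the sign turned for Plin3 (-1.92 to 0.59), Plin5 (-0.16 to 6.11), Cidec (-1.98 to 0.90), Abhd5 (-0.40 to 2.70) and G0s2 (-3.81 to 1.35) for deletion at 42 weeks, Lipe (-3.94 to 0.075) and Abhd5 (-1.19 to 1.53) for deletion at 24 weeks, Plin5 (-0.29 to 4.82), Lipe (-0.31 to 1.53) and Abhd5 (-1.17 to 0.14) for duration without Mif, Cidec (-1.90 to 1.45), Pnpla2 (-2.24 to 0.24), Lipe (-1.56 to 2.31), Abhd5 (-3.75 to 0.79) and G0s2 (-2.31 to 1.24) for duration with Mif, Plin3 (-0.36 to 2.43), Lipe (-2.03 to 2.13) and Abhd5 (-1.50 to 3.09) for the interaction, with the range of log2 fold changes over the fits in parentheses. Plin1 kept its sign in every fit run for Mif deletion at 24 weeks, duration without Mif and the interaction. DESeq2 size factors moved the median log2 fold change of all genes by 0.19 for Mif deletion at 42 weeks, 0.42 and 0.28 for duration without and with Mif, and 0.11 for the interaction. The cause of the changed calls was not tested. No paired analysis was possible because the labels give no replicate numbers. Low depth limits Plin5 and, in Apoe-/-Mif-/- mice at 24 weeks, Plin1, which rests on 5 reads (exact Poisson 95% interval 1.62 to 11.7).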
